A study of Mus musculus with 10 samples.

Results

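MOF, encoded by Kat8, is the acetyltransferase that places H4K16ac, the acetyl mark on lysine 16 of histone H4, and it was examined here together with the subunits of the complexes it works in. The 10 genes were chosen by name, out of 27040 genes listed in all libraries of single-cell RNA sequencing of mouse embryonic dorsal skin. They are Kat8 itself, 3 further subunits of the male-specific lethal (MSL) complex, Msl1, Msl2 and Msl3, and 6 subunits of the non-specific lethal (NSL) complex, Kansl1, Kansl2, Kansl3, Mcrs1, Phf20 and Wdr5.

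Within the MSL complex, MSL1 is the scaffold that holds MOF, MSL2 is a RING-finger ubiquitin ligase and MSL3 carries a chromodomain. Within the NSL complex, KANSL1 is the scaffold, KANSL2 and KANSL3 are further structural subunits, MCRS1 is a nucleolar protein that also belongs to the INO80 remodelling complex, PHF20 reads methylated lysines, and WDR5 is a WD40-repeat adaptor that also belongs to the COMPASS methyltransferases acting on histone H3 lysine 4. In mammals MSL accounts for most bulk H4K16ac, while NSL acts mainly at promoters of housekeeping genes.

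The libraries came from back skin of C57Bl/6J and CD-1 mixed-background embryos. At E15.5, where E gives the embryonic day, there were 2 controls, numbered 2 and 3, and 2 MOF conditional knockouts (MOF cKO, MOFfl/fl/K14Cre), numbered 5 and 6. At E16.5 there were 2 controls and 2 MOF cKO of the same genotype, numbered 1 and 2 in each group. E17.5 skin gave a single control library and a single QPC cKO library (QPCfl/fl/K14Cre), in which the targeted gene, Uqcrq, encodes a subunit of mitochondrial complex III. Controls were littermates, wildtype or heterozygous, and which of these each library was is not given in the sources used here. The Krt14 promoter is an epithelial driver of Cre, so dermal cells of a cKO embryo carry the floxed alleles where the driver is not active. In the study's staining, H4K16ac was reduced evenly in epithelial cells of MOF cKO 5 and in a mosaic pattern in MOF cKO 6. Stages also differed in library chemistry (3′ version 3.1 at E15.5, version 2 at E16.5 and version 3 at E17.5), so stage and chemistry cannot be told apart.

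A library held 13609345 to 203392303 unique molecular identifiers (UMIs, each standing for a captured transcript), and 716 to 10653 cells passed the filters, at a median of 9600 to 22340 UMIs per kept cell. Libraries shared between 0 and 36 kept barcodes in any pair. Cells were sorted by their own transcripts into 4 classes: epithelial cells by Krt5 and Krt14, fibroblasts by Col1a1 and Col3a1, endothelial cells by Pecam1, Cdh5 and Kdr, and macrophages by C1qa, C1qb and Csf1r. Of markers not used for sorting, 5 epithelial genes summed to 2136 to 5703 UMIs per 1000000 in epithelial cells against 11.9 to 137 in fibroblasts. The 5 fibroblast genes summed to 5459 to 8094 in fibroblasts but also to 317 to 3964 in epithelial cells, and in those of the E17.5 control they exceeded the epithelial genes (3964 against 3643). The 5 macrophage genes summed to 5414 to 6762 in macrophages and to 8.13 to 2457 in endothelial cells, where the 5 endothelial genes summed to 1551 to 3082. The classes differed in size, and the MOF cKO at E16.5 gave only 30 and 39 epithelial cells against 266 and 512 in the controls. Levels are given as CPM, the UMIs of a gene per 1000000 UMIs of the same class in the same library, and their intervals (95%, exact Poisson) cover counting error only. A level reflects how well a transcript is captured as well as its abundance, so levels were compared between cells and not between genes.

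By the GENCODE M21 annotation of GRCm38, Kat8 lies on chromosome 7 from 127912516 to 127925837 and overlaps Prss8 on the opposite strand. Msl3 is X-linked (X, 168654117 to 168673898). Kansl2 (15, 98517658 to 98534264) contains the small RNA genes Snora2b, Snora34 and Mir1291 on its own strand. Wdr5 (2, 27515157 to 27536535) and Phf20 (2, 156196466 to 156309952) overlap no other gene. Msl1 (11, 98795516 to 98807859) overlaps Casc3 on its own strand, so its count may be affected by how shared reads were assigned. The start regions of the 5 members with a difference between cell classes that was called in every processing setting tried are printed next as RefSeq gives them on GRCm38.p6, from 130 bases before to 20 after the start, in the direction of transcription, with capitals marking the motifs searched.
Kat8, chr7:127912387-127912536, plus strand: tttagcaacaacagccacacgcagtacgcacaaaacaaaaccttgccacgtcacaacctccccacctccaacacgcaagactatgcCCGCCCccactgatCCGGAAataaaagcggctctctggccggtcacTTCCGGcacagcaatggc
Msl3, chrX:168673853-168674002, minus strand: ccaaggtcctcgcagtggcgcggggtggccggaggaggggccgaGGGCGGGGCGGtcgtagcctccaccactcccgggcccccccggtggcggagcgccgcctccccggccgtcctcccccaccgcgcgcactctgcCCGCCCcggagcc
Kansl2, chr15:98534250-98534399, minus strand: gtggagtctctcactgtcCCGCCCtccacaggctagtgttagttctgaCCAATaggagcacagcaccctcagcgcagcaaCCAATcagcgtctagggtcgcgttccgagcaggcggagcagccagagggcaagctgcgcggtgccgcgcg
Phf20, chr2:156196517-156196666, plus strand: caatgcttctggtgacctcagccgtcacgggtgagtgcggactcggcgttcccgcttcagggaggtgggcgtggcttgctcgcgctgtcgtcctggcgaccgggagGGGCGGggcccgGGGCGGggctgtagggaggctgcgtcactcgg
Wdr5, chr2:27515017-27515166, plus strand: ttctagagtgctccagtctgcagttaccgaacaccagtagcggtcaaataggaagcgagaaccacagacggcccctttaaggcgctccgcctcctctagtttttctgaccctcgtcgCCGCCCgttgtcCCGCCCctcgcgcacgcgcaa

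These 5 windows held 9 CpG dinucleotides at Kat8, 20 at Msl3, 12 at Kansl2, 17 at Phf20 and 15 at Wdr5, against a median of 4 over 32466 windows of the same length. All 10 member windows lay between 9 and 24. The GC box GGGCGG, searched on both strands, was found at 8 of 10 members and in 29.4% of all windows. The CCAAT box was found at 2 of 10 (24.1% of all windows) and the ETS core CCGGAA at 3 of 10 (10.3%), with 2 copies on opposite strands at Kat8. TATAAA (7.36%) and the NRF1 site (0.721%) were found at none. A match describes letters in a window and is no evidence of binding.

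Kat8 was measured first in the class where Cre is active. In epithelial cells at E15.5, Kat8 stood at 13.02 and 13.97 CPM in controls 2 and 3, while MOF cKO 5 and 6 had 13.04 and 10.04. The E16.5 controls had 17.6 and 14.8, and their MOF cKO counterparts 1 and 2 had 8.66 and 3.75. At E17.5, Kat8 stood at 18.9 in the control and 20.9 in the QPC cKO. The E15.5 groups overlapped and the E16.5 groups did not, although the E16.5 cKO values rested on 5 and 3 UMIs, with intervals of 2.81 to 20.2 and 0.773 to 10.96. Of all genes with a mean of at least 5 CPM, 55.6% were likewise lower in both E16.5 cKO libraries than in both controls. Counting at the 3′ end can still read transcripts from an allele that has lost internal exons, so these counts are no check of the deletion.

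In the other classes Kat8 was lower in each MOF cKO library than in each control of its stage. In fibroblasts it was at 9.18 and 9.62 CPM in E15.5 controls and 6.83 and 5.98 in MOF cKO, then at 9.60 and 8.23 in E16.5 controls and 2.81 and 5.39 in MOF cKO. In endothelial cells the values were 12.1 and 12.7 against 4.53 and 2.88 at E15.5, and 13.7 and 9.89 against 0 and 3.97 at E16.5. The 0 of E16.5 MOF cKO 1 allows up to 5.99 CPM by a floor of 3 UMIs, and its Poisson interval reaches 7.36. In macrophages the values were 11.3 and 5.47 against 4.37 and 4.66 at E15.5, and 6.83 and 12.8 against 3.61 and 3.62 at E16.5. The counts behind them were 491 to 663 UMIs in fibroblasts at E15.5, 69 and 124 in controls and 19 and 67 in MOF cKO at E16.5, and 0 to 31 in any endothelial or macrophage sum of the 8 libraries. Of all genes with a mean of at least 5 CPM, 14.1% were likewise lower at both stages in fibroblasts, 8.03% in endothelial cells and 7.11% in macrophages. The plot of Kat8 by library shows both patterns.

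**Figure D1:**
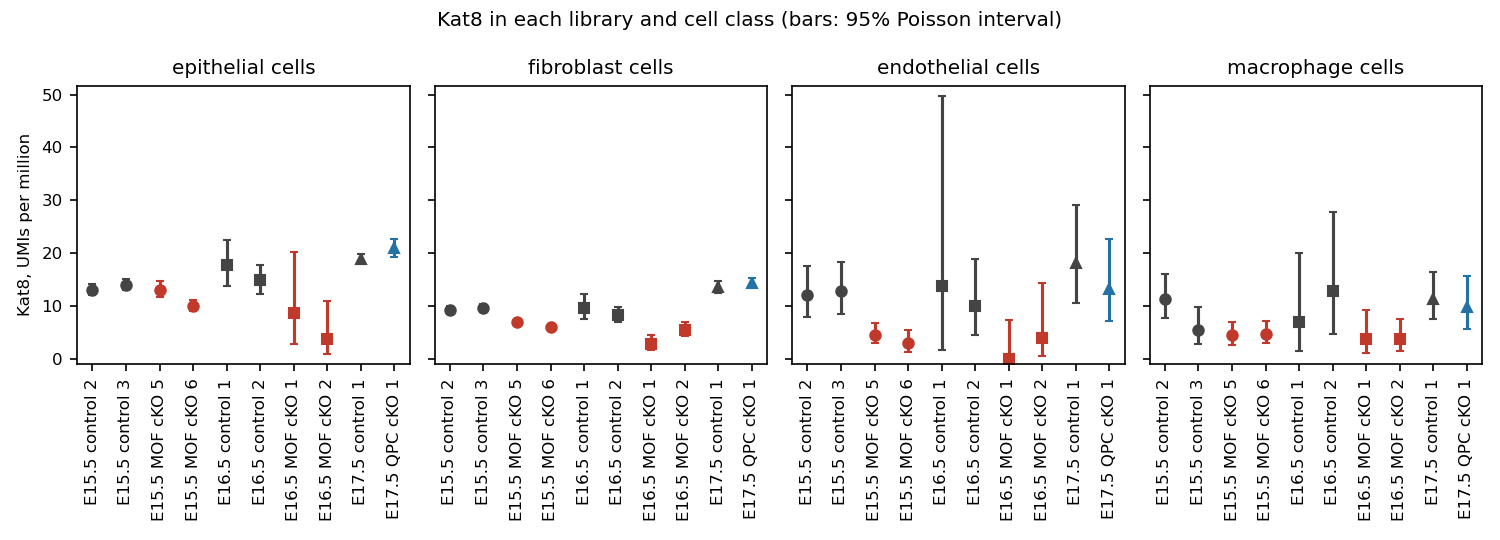
Kat8 in CPM (y axis) for each library (points, with exact Poisson 95% intervals) in the 4 cell classes, grouped by stage and genotype. The fibroblast points of the MOF cKO lie between 2.81 and 6.83, under all control points of their stage, while the E15.5 epithelial points overlap.

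Did the level of MOF and its partners differ between cell types of normal skin? The 5 control libraries were compared class against class, with the library as a term of the fit, and a gene was called at an edgeR adjusted p under 0.05. Over the controls, Kat8 averaged 15.7 ± 2.49 CPM in epithelial cells, 13.3 ± 3.05 in endothelial cells, 10.0 ± 2.03 in fibroblasts and 9.55 ± 3.19 in macrophages (SD, n = 5). Epithelial cells carried more Kat8 than fibroblasts (log2 fold change 0.66 ± 0.15 SE, edgeR adjusted p = 0.00169) and than macrophages (0.66 ± 0.20, edgeR adjusted p = 0.00795). The first call held in 12 of 12 settings, the main fit included, with fold changes between 0.61 and 0.81, and the second in 11 of 12. Neighbours in the order from epithelial through endothelial to fibroblast cells and macrophages were not separated by the test.

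Among the MSL subunits, Msl3 was the member that set fibroblasts apart. It averaged 43.9 ± 3.34 CPM in fibroblasts, 30.7 ± 8.44 in macrophages, 29.7 ± 14.4 in endothelial cells and 28.4 ± 5.94 in epithelial cells (SD, n = 5). The fibroblast level was above the epithelial level in each of the 5 controls, at 41.5 and 23.2, 43.1 and 24.5, 49.2 and 34.3, 44.8 and 24.4, and 40.9 and 35.4 respectively. Msl3 was lower in epithelial cells than in fibroblasts (−0.63 ± 0.14, edgeR adjusted p = 0.00111) and higher in fibroblasts than in endothelial cells (0.87 ± 0.17, edgeR adjusted p = 0.000488), both in 12 of 12 settings. The difference between fibroblasts and macrophages (0.41 ± 0.16, edgeR adjusted p = 0.0348) was called in 7 of 12.

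Msl3 is X-linked and the embryos were of both sexes. The Y-linked gene Ddx3y stood at 61.2 CPM in fibroblasts of E16.5 control 2, at 116 and 82.6 in the E17.5 control and QPC cKO, and at 0.0805 or less in the other libraries. Each class comparison was made within libraries and so within embryos. Msl1 averaged 59.1 ± 9.20 in endothelial cells, 53.6 ± 7.63 in fibroblasts, 47.3 ± 10.8 in epithelial cells and 44.6 ± 10.2 in macrophages (SD, n = 5), and Msl2 between 27.9 ± 6.44 and 31.2 ± 9.98. Msl2 was called in none of the 6 class comparisons in any setting, while Msl1 was not called in the main fit but in 2 of 12 settings between epithelial and endothelial cells and in 1 of 12 in 2 other comparisons.

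Of the NSL subunits, Kansl2 set macrophages apart from all other classes. It averaged 49.6 ± 14.5 CPM in epithelial cells, 46.7 ± 14.0 in fibroblasts, 43.6 ± 15.49 in endothelial cells and 24.5 ± 7.17 in macrophages (SD, n = 5). The spread over libraries was mostly shared between classes: macrophages were the lowest class in each control, at 15.7, 20.9, 31.9, 32.0 and 22.2. Kansl2 was higher than in macrophages in epithelial cells (0.97 ± 0.10, edgeR adjusted p = 3.63e-07), fibroblasts (0.86 ± 0.10, edgeR adjusted p = 1.34e-06) and endothelial cells (0.61 ± 0.11, edgeR adjusted p = 0.000208), each in 12 of 12 settings. It was also higher in epithelial than endothelial cells (0.35 ± 0.10, edgeR adjusted p = 0.00577), a call made in 9 of 12 settings. The small RNA genes inside Kansl2 are on its strand, and how their reads were assigned was not tested.

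Phf20, the methyl-lysine reader, ran the other way, with 69.8 ± 22.6 CPM in macrophages, 55.5 ± 10.5 in fibroblasts, 53.0 ± 14.0 in epithelial cells and 48.7 ± 13.4 in endothelial cells (SD, n = 5). It was lower than in macrophages in epithelial cells (−0.45 ± 0.11, edgeR adjusted p = 0.00172), fibroblasts (−0.39 ± 0.11, edgeR adjusted p = 0.00485) and endothelial cells (−0.69 ± 0.12, edgeR adjusted p = 0.000137). These 3 calls held in 12 of 12 settings. At E16.5 the macrophage level was below the fibroblast level in control 1 (41.0 and 46.9) and above it in control 2 (53.3 and 42.1).

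Wdr5 was the NSL subunit called in epithelial cells against each of the other 3 classes. It averaged 31.5 ± 3.14 CPM in epithelial cells against 23.2 ± 5.22 in fibroblasts, 22.8 ± 5.81 in endothelial cells and 22.3 ± 4.01 in macrophages (SD, n = 5). The epithelial level was above the fibroblast level in 5 of 5 controls: 27.9 and 19.2, 28.8 and 19.8, 35.6 and 32.0, 31.9 and 23.9, and 33.1 and 21.4. Wdr5 was higher in epithelial cells than in fibroblasts (0.48 ± 0.12, edgeR adjusted p = 0.00266; 12 of 12 settings), endothelial cells (0.55 ± 0.14, edgeR adjusted p = 0.00444; 11 of 12) and macrophages (0.42 ± 0.14, edgeR adjusted p = 0.0160; 7 of 12). Kansl3 averaged 31.2 ± 4.55 in epithelial cells and 20.1 ± 4.18 in macrophages (SD, n = 5) and was higher in epithelial cells (0.51 ± 0.15, edgeR adjusted p = 0.00985; 8 of 12), and it was also called against macrophages in fibroblasts (0.46 ± 0.15; 8 of 12) and against endothelial cells in epithelial cells (0.40 ± 0.16; 5 of 12). Mcrs1 averaged 58.9 ± 16.6 in endothelial cells and 45.1 ± 16.0 in epithelial cells (SD, n = 5) and was lower in epithelial cells (−0.37 ± 0.12, edgeR adjusted p = 0.0143; 8 of 12), as it was against macrophages (−0.36 ± 0.11; 9 of 12). Between fibroblasts and endothelial cells, Kansl2 (0.24 ± 0.10; 3 of 12) and Phf20 (0.31 ± 0.11; 2 of 12) were called in few settings. Kansl1, the NSL scaffold, averaged between 36.9 ± 7.98 and 39.7 ± 15.7 (SD, n = 5) and was called in none of the 6 comparisons in the main fit, but in 3 of 12 settings as lower in fibroblasts than in macrophages. In all, 11 pairs of a member and a comparison were called under alternatives alone, each in 1 to 3 of 12 settings.

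Counted over the members, 3 of 10 were called between epithelial cells and fibroblasts, where 54.0% of the 12754 genes tested were called. The count was 4 of 10 for epithelial against endothelial cells (49.7% of all genes), 6 of 10 for epithelial cells against macrophages (59.6%) and 3 of 10 for fibroblasts against endothelial cells (46.7%). It was 4 of 10 for fibroblasts against macrophages (61.0%) and 2 of 10 for endothelial cells against macrophages (45.9%). In 5 of the 6 comparisons the share of members called was below that of all genes. The called differences of members spanned −0.69 to 0.97. The median over the members was 0.07 between epithelial cells and fibroblasts, beside 0.01 over all genes, and 0.03 between epithelial cells and macrophages, beside 0.21. Calls involving endothelial cells rest on 11 to 125 cells per control, and with E15.5 control 2 left out no member was called between epithelial and endothelial cells. Over all genes, leaving out any 1 control still gave 4813 to 6378 calls in that comparison.

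**Figure D2:**
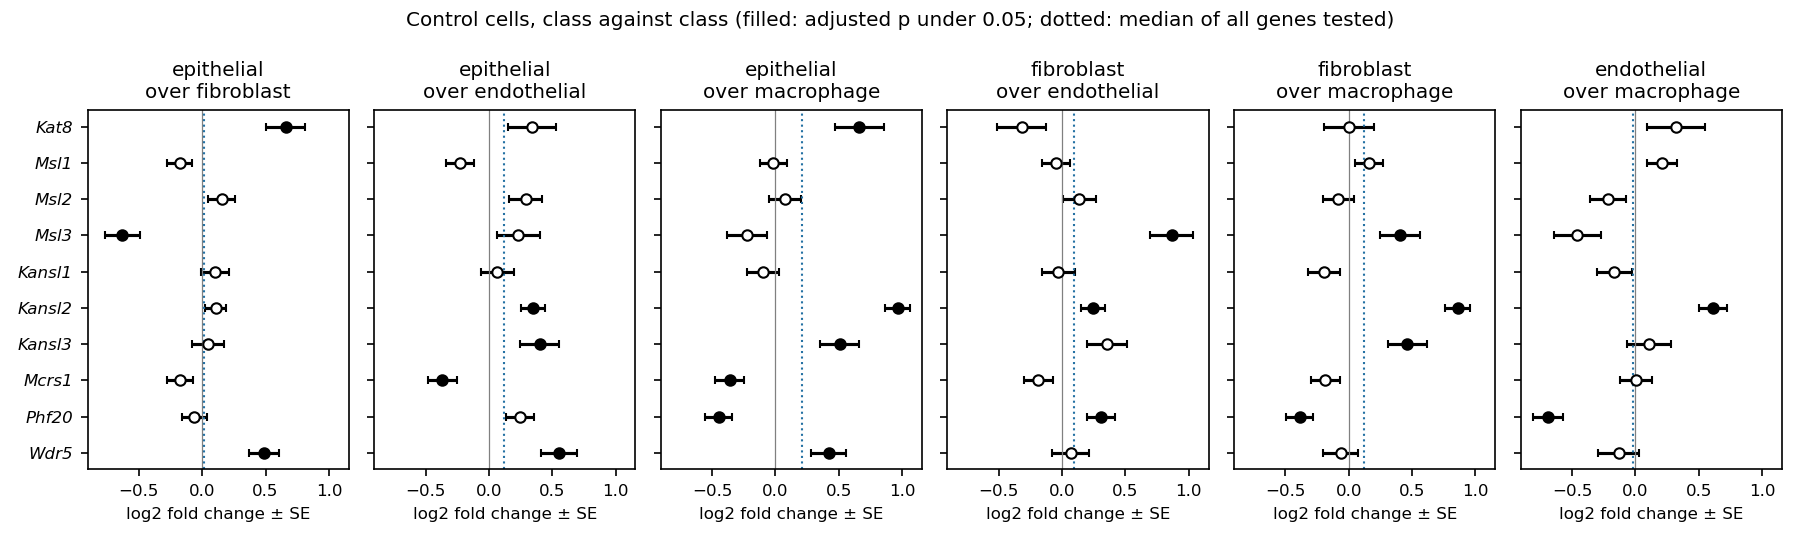
Log2 fold change (x axis, with SE) of each member in the 6 comparisons between cell classes of the 5 control libraries, with calls at an edgeR adjusted p under 0.05 marked. Kansl2 is highest against macrophages at 0.97, 0.86 and 0.61, and Msl3 lies at −0.63 in epithelial cells against fibroblasts.

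Relatives and partners from fixed lists were called in the same comparison of epithelial cells with fibroblasts as follows. Of 5 further NSL subunits and relatives of members, 2 were higher in epithelial cells, Phf20l1 (0.37 ± 0.11), a paralog of Phf20, and Kansl1l (0.67 ± 0.16), a paralog of Kansl1, and 1 was lower, Msl3l2 (−0.97 ± 0.23), a close relative of Msl3 whose reads may be hard to separate from it. Of 4 other acetyltransferases of the MYST family, Kat7 was higher (0.27 ± 0.09) and Kat6b lower (−1.04 ± 0.14). Of 4 deacetylases that can act on H4K16, Hdac1 was higher (0.33 ± 0.11) and Sirt2 lower (−0.45 ± 0.08). Of 7 COMPASS partners of Wdr5, 3 core subunits were higher, Ash2l (0.58 ± 0.11), Rbbp5 (0.39 ± 0.13) and Dpy30 (0.54 ± 0.09), and the methyltransferase Kmt2a was lower (−0.18 ± 0.07). Of 5 INO80 partners of Mcrs1, only Ruvbl2 was higher (0.56 ± 0.14).

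Over these 25 genes, 8 were higher and 4 lower in epithelial cells than in fibroblasts, beside 54.0% of all genes called. The counts were 7 higher and 1 lower against endothelial cells (49.7% of all genes) and 11 higher and 4 lower against macrophages (59.6%). Fibroblasts had 4 higher and 1 lower against endothelial cells (46.7%) and 8 higher and 3 lower against macrophages (61.0%), and endothelial cells 5 higher and 5 lower against macrophages (45.9%). Among the deacetylases, Hdac2 stood above macrophages in epithelial cells (1.49 ± 0.09), fibroblasts (1.38 ± 0.09) and endothelial cells (0.84 ± 0.09), as did Hdac1 (0.87 ± 0.12, 0.53 ± 0.12 and 0.63 ± 0.13), while Sirt2 stood below (−1.48 ± 0.08, −1.03 ± 0.08 and −1.02 ± 0.09). Hdac2 was also higher in epithelial cells (0.65 ± 0.08) and fibroblasts (0.54 ± 0.08) than in endothelial cells, and Sirt2 was lower in epithelial than endothelial cells (−0.46 ± 0.09).

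In the same order of epithelial cells, fibroblasts and endothelial cells against macrophages, the MYST enzyme Kat6b was higher (0.68 ± 0.18, 1.73 ± 0.18 and 0.70 ± 0.20) and Kat7 lower (−0.44 ± 0.10, −0.71 ± 0.10 and −0.51 ± 0.11). Kat6a was lower than in macrophages in epithelial (−0.46 ± 0.16) and endothelial cells (−0.53 ± 0.19), and Kat6b was higher in fibroblasts than in endothelial cells (1.02 ± 0.17). Of the relatives of NSL subunits, Phf20l1 was higher than in macrophages (0.80 ± 0.13, 0.43 ± 0.13 and 0.73 ± 0.13) and Kansl1l lower (−0.93 ± 0.18, −1.60 ± 0.18 and −1.82 ± 0.22). Kansl1l was higher in epithelial than endothelial cells (0.89 ± 0.21), and the Msl3 relative Msl3l2 was higher in fibroblasts than in endothelial cells (0.81 ± 0.31) and macrophages (1.38 ± 0.33). Epithelial cells had more Ogt, which encodes the O-GlcNAc transferase, than endothelial cells (0.48 ± 0.14) and macrophages (0.58 ± 0.14), and more Hcfc1 than endothelial cells (0.31 ± 0.11).

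Of the COMPASS genes, Kmt2a was higher than in macrophages in all 3 classes (0.70 ± 0.09, 0.88 ± 0.08 and 0.40 ± 0.09) and higher than in endothelial cells in epithelial cells (0.31 ± 0.08) and fibroblasts (0.49 ± 0.08). Ash2l was higher in epithelial cells than in endothelial cells (0.74 ± 0.13) and macrophages (0.65 ± 0.12). Rbbp5 was higher in epithelial than endothelial cells (0.86 ± 0.18) and lower in endothelial cells than macrophages (−0.81 ± 0.20). Dpy30 was higher in epithelial cells than macrophages (0.33 ± 0.10) and lower in fibroblasts than endothelial cells (−0.30 ± 0.10). Of the INO80 genes, Actr8 was higher than in macrophages in epithelial cells (0.60 ± 0.15) and fibroblasts (0.58 ± 0.15), as was Ruvbl1 (0.45 ± 0.13 and 0.41 ± 0.13), and Ruvbl2 in epithelial cells (0.51 ± 0.16).

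Stages are given side by side, without a test, because the chemistry and the list of genes counted changed with them. In control fibroblasts, 5 of 10 members were higher in both E16.5 libraries than in the E15.5 and E17.5 controls, Msl3, Kansl2, Kansl3, Mcrs1 and Wdr5. Mcrs1 stood at 36.6 and 36.9 CPM at E15.5, 74.8 and 60.5 at E16.5 and 46.5 at E17.5. Of 8076 genes with a mean of at least 10 CPM in these sums, 25.1% were higher in this way. Another 3 of 10 were lower at E16.5 than at both other stages, Msl2, Kansl1 and Phf20, beside 33.3% of the same genes. Phf20 stood at 61.9 and 66.8, then 46.9 and 42.1, then 59.8.

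**Figure D3:**
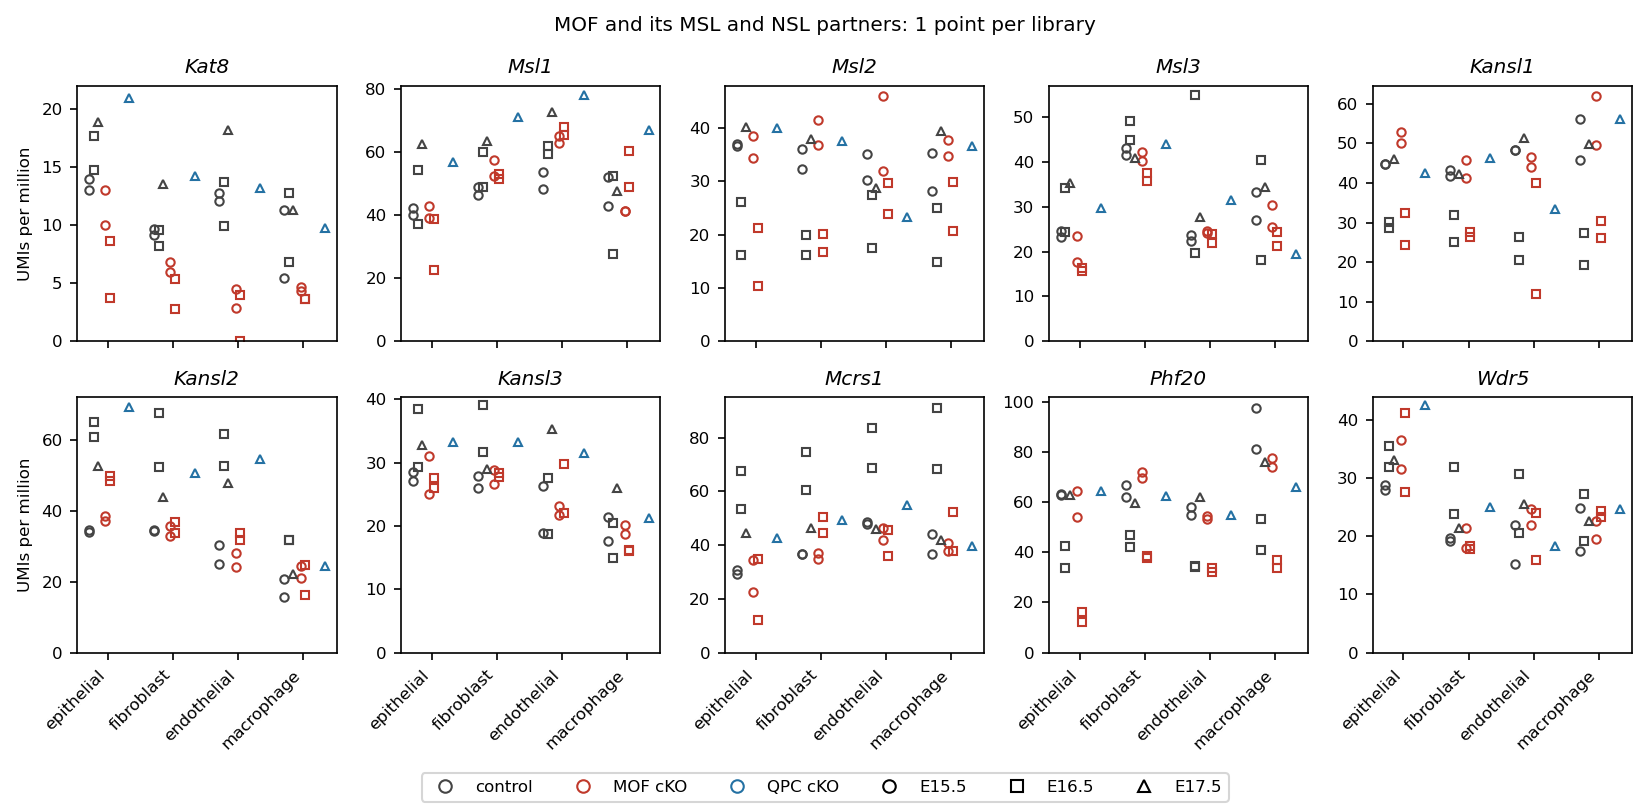
Level of each of the 10 members in CPM (y axis) in each library, by cell class, stage and genotype. In fibroblasts Kansl2 and Mcrs1 stand highest in E16.5 control 1, at 67.7 and 74.8, and Phf20 stands lowest at E16.5 in all 4 classes.

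Was MOF or a partner altered in the MOF cKO? Each class was compared at each stage and over both stages with stage as a term, and none of the 10 members was called in any of these 12 fits. The test is edgeR's quasi-likelihood test, and the fitted values are scaled by TMM, a normalization that sets libraries to a common middle. The share of all genes called was 0% in epithelial cells, 0% in fibroblasts, 0.0963% in endothelial cells and 1.27% in macrophages at E15.5. At E16.5 it was 5.82%, 4.64%, 4.94% and 0%, and over both stages 0%, 0%, 0.0625% and 1.25%, in the same order of classes. At an unadjusted p under 0.05, the members numbered 1, 2, 2 and 1 at E15.5, 0, 4, 1 and 1 at E16.5, and 2, 2, 2 and 1 over both stages. The shares of all genes at that cut were 9.30%, 15.6%, 9.88% and 13.9% at E15.5, 28.1%, 25.2%, 16.1% and 14.7% at E16.5, and 18.1%, 22.7%, 8.17% and 14.3% over both stages. DESeq2, run as the other tool, called 1 member in E15.5 fibroblasts, and over both stages 1 in fibroblasts and 1 in endothelial cells. It was Kat8 each time, and 0 members were called in the other 9 fits. Over all genes DESeq2 called 494, 1543 and 112 in these fits, where 16268, 14435 and 9598 genes passed the same filter. Samples of a group were separate embryos, and p-values measure the spread between these embryos alone.

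The fitted values of the 10 members ran, at E15.5, from −0.10 to 0.39 in epithelial cells, −0.58 to 0.18 in fibroblasts, −1.62 to 0.38 in endothelial cells and −0.95 to 0.34 in macrophages. At E16.5 they ran from −0.85 to 0.63 and −0.95 to 0.16 in the first 2 classes, and, for the 9 members tested, from −0.78 to 0.63 and −0.80 to 0.46 in the others. Kat8 had the largest fitted differences of the members outside the epithelium. Over both stages it was at −1.71 ± 0.38 in endothelial cells (edgeR adjusted p = 0.107), −1.09 ± 0.35 in macrophages (edgeR adjusted p = 0.195) and −0.73 ± 0.17 in fibroblasts (edgeR adjusted p = 0.110). In epithelial cells it was at −0.34 ± 0.31 (edgeR adjusted p = 0.546). None of these passed the threshold, and over the alternatives they ran from −2.10 to −1.53, −1.39 to −0.78, −0.82 to −0.60 and −0.65 to −0.13. The endothelial value includes a library at 0 UMIs and depends on the prior count of the fit. At E16.5, Kat8 counts in endothelial cells and macrophages were too few to be tested.

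Kat8 was also compared in CPM by an exact two-sided permutation test, with labels exchanged within stage over 36 arrangements. The mean difference, MOF cKO minus control, was −3.90 CPM in fibroblasts, −9.26 in endothelial cells and −5.04 in macrophages, with exact p = 0.0556 each, the smallest that this design allows (0.0741 adjusted over the 4 classes). In epithelial cells it was −5.99 with exact p = 0.111. The test of whether the epithelial change differed from the fibroblast change gave 0.37 ± 0.32 for Kat8 (edgeR adjusted p = 0.578; 0.12 with library size alone). The genotype is that of the whole embryo while Cre is epithelial, and the controls' alleles are not given, so allele and Cre activity cannot be told apart in these groups and their part in the result was not tested.

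Other cell markers moved with some of these groups. In endothelial cells at E16.5, 5 macrophage markers summed to 1231 and 2457 CPM in the MOF cKO and to 20.6 and 70.3 in the controls. At E15.5 they summed to 71.0 to 213 in controls and 121 to 304 in the MOF cKO, where Kat8 was fitted at −1.62 ± 0.35 (edgeR adjusted p = 0.182). In the same E15.5 endothelial cells, fibroblast markers summed to 293 to 300.4 in controls and 451 to 609 in MOF cKO, and erythroid markers to 8653 to 11820 and 19540 to 22300. Endothelial markers in E15.5 macrophages summed to 41.3 to 42.3 in controls and 26.2 to 26.8 in MOF cKO. In E16.5 macrophages, fibroblast markers summed to 371 to 531 in controls and 880.2 to 1948 in MOF cKO. Epithelial markers in fibroblasts summed to 35.9 to 54.0 in E15.5 controls and 11.9 to 21.3 in MOF cKO. Of E16.5 endothelial cells, 3 of 11 and 10 of 60 in controls and 9 of 25 and 11 of 26 in MOF cKO also met the rule of another class. Of E16.5 macrophages, 6 of 33 and 5 of 45 in controls and 14 of 59 and 56 of 119 in MOF cKO did, and without such cells Kat8 in macrophages was at −1.07 ± 0.37 over both stages (edgeR adjusted p = 0.163). The part of the markers in the Kat8 values was not tested.

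None of the MSL subunits passed the test in any class. In epithelial cells at E15.5, Msl1 stood at 42.3 and 40.1 CPM in controls and 39.2 and 43.1 in MOF cKO (0.13 ± 0.12, edgeR adjusted p = 0.624). Msl2 stood at 36.6 and 37.0 against 34.4 and 38.6 (0.12 ± 0.12, edgeR adjusted p = 0.646), and Msl3 at 23.2 and 24.5 against 17.7 and 23.4 (−0.10 ± 0.14, edgeR adjusted p = 0.722). In CPM the groups overlapped for all 3 genes. After TMM scaling both cKO libraries were above both controls for Msl1 (40.6 and 45.4 against 38.6 and 40.1) and Msl2 (36.3 and 39.9 against 34.7 and 35.6), as for 26.8% of all genes with a mean of at least 5 CPM, and with library size alone the fitted values were −0.0021 and −0.011. In fibroblasts over both stages the fitted values were 0.13 ± 0.07 for Msl1, 0.16 ± 0.09 for Msl2 and −0.15 ± 0.07 for Msl3. After TMM the widest MSL value over both stages was in endothelial cells, 0.37 ± 0.19 for Msl2, next to 0.36 ± 0.13 for Msl1 (edgeR adjusted p = 0.439). With library size alone these were 0.30 and 0.27, and Msl3 in epithelial cells was wider at −0.48. Msl1 in endothelial cells stood at 53.6 and 48.3 in controls against 62.8 and 65.0 in MOF cKO at E15.5. At E16.5 it stood at 61.8 and 59.4 against 67.9 and 65.5. The cKO libraries were the higher ones at each stage, as they were for 4.20% of all genes with a mean of at least 5 CPM.

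Among the NSL subunits, Wdr5, Kansl1 and Kansl2 had the most positive values in MOF cKO epithelial cells at E15.5. Wdr5 stood at 27.9 and 28.8 CPM in controls and 31.6 and 36.6 in MOF cKO (0.39 ± 0.12, edgeR adjusted p = 0.503). Kansl1 stood at 44.7 and 44.9 against 52.9 and 50.1 (0.34 ± 0.16, edgeR adjusted p = 0.503), and Kansl2 at 34.7 and 34.2 against 37.2 and 38.5 (0.27 ± 0.14, edgeR adjusted p = 0.503). Both cKO libraries were above both controls for these 3 genes, as for 16.9% of all genes with a mean of at least 5 CPM. None passed the test, and all 3 stayed positive with library size alone (0.27, 0.20 and 0.14). With MOF cKO 6 left out, the same 3 were called (0.43, 0.51 and 0.38), in a fit that called 45.5% of all genes and assumed that the lone MOF cKO 5 varies like the controls. Epithelial markers summed to 4703 and 4820 in the control epithelial cells and to 2136 and 3688 in the MOF cKO, and their part in these values was not tested.

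At E16.5 the epithelial values depended on scaling. The median of all genes was −0.11 after TMM and −0.70 with library size alone, and 6 of 10 members were positive after TMM but 1 of 10 with library size alone. Wdr5 stood at 35.6 and 31.9 CPM in controls and 27.7 and 41.2 in MOF cKO (0.63 ± 0.31 after TMM, edgeR adjusted p = 0.232; 0.04 with library size alone). Phf20, the reader subunit, stood at 33.7 and 42.5 against 12.1 and 16.2 (−0.85 ± 0.40, edgeR adjusted p = 0.220). Mcrs1 stood at 67.5 and 53.3 against 12.1 and 35.0 (−0.73 ± 0.42, edgeR adjusted p = 0.295). For both genes the cKO libraries were the lower ones, as for 55.6% of all genes with a mean of at least 5 CPM, and both values were negative under either scaling. Fibroblast markers in these epithelial cells summed to 1123 and 2697 in controls and 317 and 372 in MOF cKO.

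In fibroblasts at E16.5, Kansl2 came nearest to the threshold of all members. It stood at 67.7 and 52.5 CPM in controls and 33.7 and 37.0 in MOF cKO (−0.63 ± 0.13, edgeR adjusted p = 0.0563). It was called together with Kat8 when no filter on low counts was used, in a fit that called 1752 genes in place of 583. At E15.5 the same gene was at 34.3 and 34.7 against 33.0 and 35.8 (−0.03 ± 0.06, edgeR adjusted p = 0.855). The E16.5 groups did not overlap on either scale. Of all genes with a mean of at least 5 CPM, 39.8% were likewise lower in CPM and 31.9% after TMM. The E15.5 groups overlapped in CPM but not after TMM scaling (33.7 and 34.6 against 34.7 and 34.9), where 28.7% of such genes were likewise lower. Wdr5 (−0.49 ± 0.16, edgeR adjusted p = 0.137) and Mcrs1 (−0.38 ± 0.15, edgeR adjusted p = 0.195) were also negative at E16.5, and Mcrs1 was at −0.78 ± 0.32 in endothelial cells (edgeR adjusted p = 0.267) and −0.80 ± 0.29 in macrophages (edgeR adjusted p = 0.290). Over the 10 members in E16.5 fibroblasts the median was −0.22, beside 0.01 over all genes, with 3 of 10 positive.

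**Figure D4:**
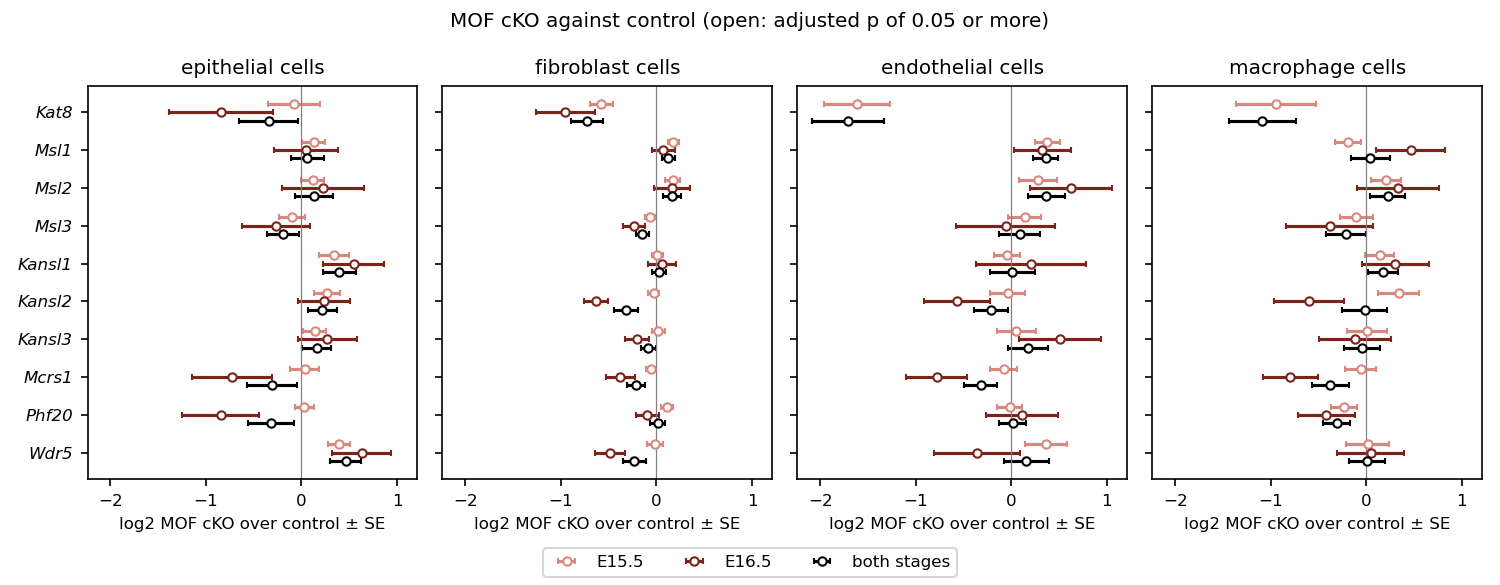
Log2 fold change (x axis, with SE) of each member in MOF cKO against control, at E15.5, at E16.5 and over both stages, in the 4 cell classes. No value passed an edgeR adjusted p of 0.05. Of the values over both stages, on this TMM scale, Kat8 lies lowest at −1.71 in endothelial cells. Wdr5 lies highest of these at 0.46 in epithelial cells (0.17 with library size alone).

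The epithelial and fibroblast changes were then compared with each other in 1 fit of the 8 libraries. Again 0 of 10 members were called, where 0.00669% of all genes were, 2 members had an unadjusted p under 0.05, beside 17.4% of all genes, and DESeq2 also called 0 members. After TMM, Wdr5 had the largest difference (0.71 ± 0.23, edgeR adjusted p = 0.208), with 0.46 ± 0.16 in epithelial cells (0.17 with library size alone) beside −0.23 ± 0.12 in fibroblasts. Kansl2 followed (0.55 ± 0.20, edgeR adjusted p = 0.229), with 0.22 ± 0.15 in epithelial cells (−0.09 with library size alone) beside −0.32 ± 0.13 in fibroblasts. With library size alone the order changed: Phf20 was at −0.58 and Wdr5 at 0.42. Mcrs1 (−0.37), Msl1 (−0.32), Msl3 (−0.30) and Msl2 (−0.26) came next, ahead of Kansl2 at 0.25. Without E15.5 MOF cKO 6, Wdr5 was called at 0.81, in a fit that called 10.0% of all genes. Of the 25 relatives and partners listed above, 2 were called in a MOF cKO comparison within a class: Hdac1 in E15.5 macrophages (0.92 ± 0.18, edgeR adjusted p = 0.0483), beside 1.27% of all genes, and Ruvbl2 in E16.5 fibroblasts (−0.69 ± 0.12, edgeR adjusted p = 0.0422), beside 4.64%.

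Did the members differ when the epithelium lost a respiratory chain subunit instead? The targeted gene, Uqcrq, stood at 106 CPM in control epithelial cells and 43.9 in QPC cKO epithelial cells, and at 69.4 and 122 in fibroblasts. With 1 library per group there is no test of the condition, and a member was counted as different at a ratio of 1.5 either way with separate counting intervals. By this rule 0 of 10 members differed in epithelial cells, where 19.3% of all genes did, 0 in fibroblasts (8.07%), 0 in endothelial cells (5.68%) and 1 in macrophages (12.9%). The macrophage gene was Msl3, at 34.4 CPM (27.3 to 42.7) in the control and 19.5 (13.5 to 27.2) in the QPC cKO, a ratio of 0.579 (0.368 to 0.855) that rests on 82 and 34 UMIs. It did not pass under 3 of the alternatives. Of these macrophages, 49 of 107 in the control and 12 of 79 in the QPC cKO also met the rule of another class. Without such cells Msl3 was at 31.3 and 17.4 CPM, a ratio of 0.569 (0.318 to 0.954) from 35 and 25 UMIs, and the separate intervals overlapped.

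In epithelial cells the ratios, QPC cKO over control, ran from 0.843 to 1.31 over the 10 members. Kansl2 stood at 52.8 CPM in the control and 69.5 in the QPC cKO, a ratio of 1.31 (1.25 to 1.39). Wdr5 stood at 33.1 and 42.5, a ratio of 1.28 (1.20 to 1.38), while Msl3 stood at 35.4 and 29.7 (0.843; 0.775 to 0.906). These counting intervals exclude 1, but no library repeats the condition. Those of Msl1 (0.910, 0.858 to 0.962), Kansl1 (0.925, 0.864 to 0.986) and Kat8 (1.10, 1.01 to 1.22) exclude 1 too. The share of all genes with such intervals is not given. In fibroblasts Kansl2 was at 1.15 (1.09 to 1.23), Wdr5 at 1.17 (1.08 to 1.28) and Msl3 at 1.07 (1.01 to 1.15). Kansl2 and Wdr5 thus had intervals above 1 in both classes, in a single library per group. Fibroblast intervals also lay above 1 for Kansl1 (1.03 to 1.17), Kansl3 (1.06 to 1.23), Msl1 (1.07 to 1.18) and Mcrs1 (1.003 to 1.13). They included 1 for Kat8, Msl2 and Phf20. Kat8 stood at 18.9 and 20.9 (1.10; 1.01 to 1.22) in epithelial cells and at 13.5 and 14.2 (1.05; 0.942 to 1.18) in fibroblasts, and Msl2, the ligase, at 40.3 and 40.0 (0.992; 0.925 to 1.06) in epithelial cells. Ratios over the 10 members ran from 0.991 to 1.17 in fibroblasts, 0.660 to 1.19 in endothelial cells and 0.579 to 1.39 in macrophages. The median log2 ratio of all genes was −0.03 in epithelial cells and 0.07 in fibroblasts, and fibroblast markers in epithelial cells summed to 3964 in the control and 1218 in the QPC cKO.

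**Figure D5:**
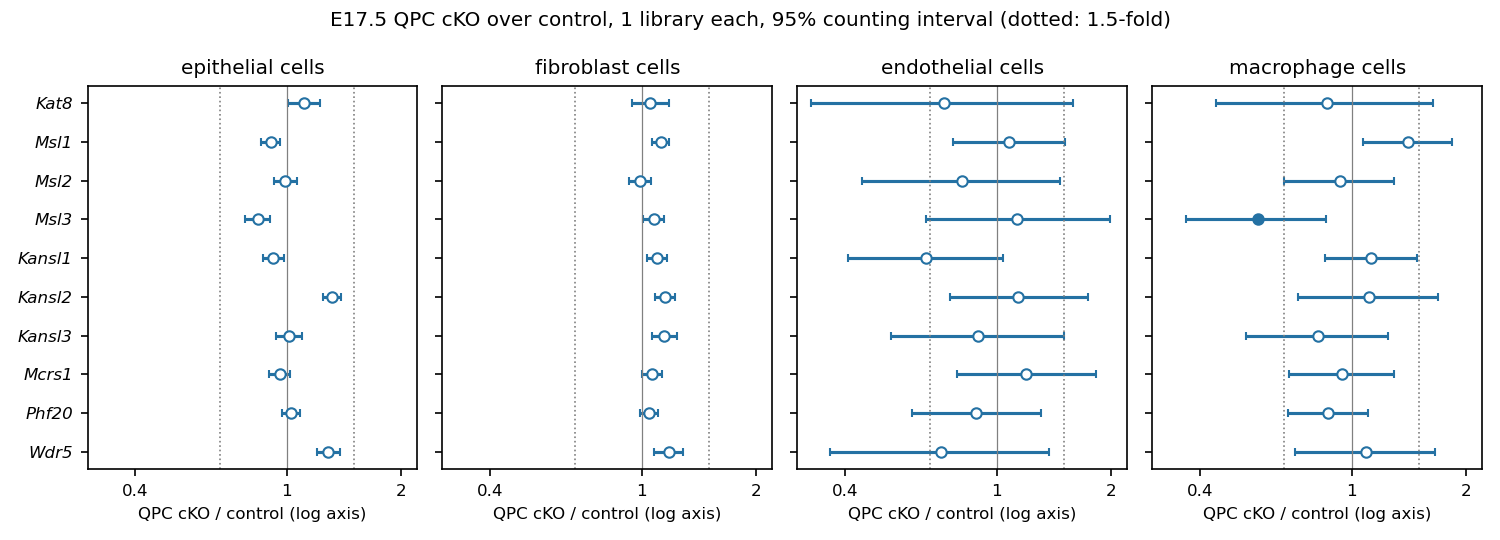
Ratio of CPM, QPC cKO over control, at E17.5 (log-spaced x axis, with counting intervals) for the 10 members in the 4 cell classes, 1 library per group. Points are drawn without the pseudocount. With it, the log2 ratio of Msl3 in macrophages is −0.79, and those of Kansl2 and Wdr5 in epithelial cells are 0.39 and 0.35.

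The genes whose pattern over classes was most like that of Kat8 were sought over 30 sums of a library and class, in 8641 genes. The mean of each library over its classes was first subtracted on the log2 scale. Differences between classes within libraries were thus compared, and not levels between libraries. Pearson's r was highest for Hoxa7 (0.861), Aig1 (0.852), Cnot7 (0.848), Aasdhppt (0.836) and Ldhb (0.835). Of the members, Kansl2 (0.557) and Wdr5 (0.551) were most like Kat8, and Mcrs1 (−0.505) and Msl1 (−0.466) least. These are descriptions, since the sums come from only 10 libraries.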

How the data were processed

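Single-cell RNA was measured in 10 libraries of embryonic back skin. The authors counted UMIs per gene and barcode with Cell Ranger (versions 1.3.1 and 6.1.2 per the labels) on mm10, and deposited count matrices, 27998 genes at E16.5 and 32285 at the other stages. The deposited counts were used unchanged. Cells with more than 1000 and fewer than 6000 genes and under 10% mitochondrial UMIs were kept and no doublet caller was run, so 9 to 73 cells per library met the rule of more than one class, a larger share of endothelial cells and macrophages than of the other classes. Classes needed 10 UMIs of Krt5 plus Krt14 (epithelial), 30 of Col1a1 plus Col3a1 with fewer than 10 of Krt5 plus Krt14 (fibroblast), or 2 of 3 markers (endothelial, macrophage).

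UMIs were summed per library and class. The main test was edgeR 4.0.16 (filterByExpr, TMM, quasi-likelihood, Benjamini-Hochberg adjustment over all genes tested, threshold 0.05) in R 4.3.3, and the scripts were tested on simulated data. E17.5 used a pseudocount of 1 CPM and at least 10 UMIs over both libraries. Likeness used genes with a mean of at least 10 CPM and sums of at least 1000000 UMIs. Intervals came from scipy 1.17.1, and floors from 3 UMIs. Alternatives were DESeq2 1.42.0, library size alone, no count filter, 5% mitochondrial UMIs, stricter class thresholds, cells of a single class, other pseudocounts, each library left out, and the replicate block.

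All 10 members were taken in every comparison, either with a value or within the range given, and relatives were named where called. The members and gene lists were chosen with earlier results of these data known.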

Additional observations from a re-analysis of the deposited data

Results flagged for a closer look

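Of the members, 2 had MOF cKO libraries on one side of the controls at E15.5 and on the other side at E16.5, on the TMM scale, and the difference between stages was not tested. In fibroblasts this was 1 of 10 members, beside 4.97% of 7960 genes with a mean of at least 10 CPM, and in macrophages 1 of 10, beside 6.12% of 7873 genes. In epithelial and endothelial cells it was 0 of 10, beside 8.47% and 8.09%. Phf20 in fibroblasts was at a log2 fold change of 0.11 at E15.5, with scaled levels of 69.3 to 70.9 CPM against 62.5 to 67.2 in controls, and at −0.095 at E16.5, with 37.9 to 41.9 against 42.0 to 43.0. Kansl2 in macrophages was at 0.34 at E15.5, with 20.9 to 24.9 against 16.2 to 20.3, and at −0.60 at E16.5, with 16.45 to 24.6 against 31.0 to 32.7. These E16.5 macrophage levels rest on 14 and 15 UMIs in controls and 18 and 48 in MOF cKO, and their counting intervals overlap. None of the 4 values passed the edgeR threshold at its stage, and stage, chemistry and gene list cannot be told apart.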

How the results depend on the processing

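No called difference of a member changed direction under any alternative, and 218 counts of called members stayed within 1.5 times the main count while 26 did not. Many of the 218 were a count of 0 beside a main count of 0, in the MOF cKO fits, and say little on stability. DESeq2 called 1 member in E15.5 fibroblasts, 1 in fibroblasts and 1 in endothelial cells over both stages (Kat8 each time), and 5 between epithelial cells and fibroblasts in place of 3. Without the low-count filter, 2 members were called in E16.5 fibroblasts (Kat8 and Kansl2) and 1 in endothelial cells over both stages (Kat8). Under 5% mitochondrial UMIs, 3 members were called between epithelial cells and macrophages and 0 passed the E17.5 macrophage rule. Library size alone left 1 member between fibroblasts and endothelial cells, as did leaving out cells in several classes (1), which also gave 0 in E17.5 macrophages. Stricter class thresholds gave 1 in E17.5 endothelial cells and 0 in macrophages. The cause was not tested. Over all genes, DESeq2 called 7744 between epithelial cells and fibroblasts, in place of 6886. Under 5% mitochondrial UMIs, 6773 were called between epithelial cells and macrophages, in place of 7598. Between fibroblasts and endothelial cells, library size alone called 5686 and cells of a single class gave 5866, in place of 5960. All-gene shares for the E17.5 rule under these alternatives are not given. Over all genes, calls at E15.5 (epithelial, fibroblast, endothelial, macrophage) were 0, 0, 10 and 137, against 140, 494, 25 and 125 with DESeq2 and 1, 222, 71 and 669 without the filter. At E16.5 they were 578, 583, 298 and 0, against 864, 950, 152 and 151 and 2007, 1752, 615 and 416. Over both stages they were 0, 0, 6 and 123, against 625, 1543, 112 and 344 and 516, 160, 370 and 667. For the difference between epithelial cells and fibroblasts they were 1, 617 and 30. Leaving out a library gave 1 to 7015 in E15.5 epithelial cells, 39 to 1105 in E16.5 epithelial cells and 0 to 369 in E16.5 fibroblasts.

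With each library left out in turn, called members ranged from 0 to 3 in E15.5 epithelial cells and 0 to 1 for the difference between epithelial cells and fibroblasts (highest without E15.5 MOF cKO 6), 0 to 4 for epithelial against endothelial cells (0 without E15.5 control 2, 1 without control 3, 2 without E16.5 control 2), and 3 to 7 for epithelial cells against macrophages. The range was 1 to 3 for fibroblasts against endothelial cells and 2 to 4 against macrophages, 2 to 3 for endothelial cells against macrophages, 3 to 3 for epithelial cells against fibroblasts, and 0 to 0 in the other MOF cKO fits. Over all genes, epithelial cells gave 4813 to 6378 calls against endothelial cells, 6318 to 7549 against macrophages and 5299 to 6996 against fibroblasts. Fibroblasts gave 4571 to 5936 against endothelial cells and 6719 to 7793 against macrophages, and endothelial cells 4654 to 5860 against macrophages. The main fit called 6335, 7598, 6886, 5960, 7782 and 5855 in this order. The shared replicate numbers at E16.5 are only numbers: same-numbered embryos deviated with correlations of −0.0896, −0.230, −0.125 and 0.0835 in the 4 classes. With the replicate block, 0 members were called in each class and all-gene calls were 554, 576, 300 and 0, against 578, 583, 298 and 0. The crossed pairing, added after seeing the data, also called 0 members. Kat8 in endothelial cells and macrophages, at 0 to 31 UMIs per sum in the MOF series, and the epithelial cells of E16.5 MOF cKO are limited by depth.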
